A study of Mus musculus with 11 samples.

Results

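What the addition of the GIF-DTR genotype to the ATP4B-DTR genotype did to the corpus transcriptome was asked by comparing 2 groups of mouse samples, chosen by their genotype label alone: GIF/ATP4B-DTR (n = 3) against ATP4B-DTR (n = 3). These are 6 of the 11 samples of the series; the wild-type controls and the GIF-DTR samples entered only alternative fits. All 6 samples are gastric mucosa of the corpus, the acid-secreting body of the stomach, and all 6 carry ATP4B-DTR, so that genotype is shared and the GIF-DTR genotype is what differs. DTR stands for the diphtheria toxin receptor: mouse cells bind diphtheria toxin poorly, and giving a cell type the receptor makes it possible to kill that type with the toxin. The lines are named for Atp4b, the beta subunit of the proton pump of parietal cells, and Gif, intrinsic factor, which mouse chief cells make; the series describes them as models for removing those cells selectively. The promoter fragments, the number of founders, the toxin dose and schedule, and the strain, age and sex of the animals are not given in the sources used here. The labels do not say that the 3 samples of a group came from separate animals, so p-values measure the spread between these samples, which may be technical.

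In the corpus gland, stem cells of the isthmus give rise to pit cells above, and to parietal, mucous neck and chief cells below. Parietal cells secrete acid and growth factors, neck cells secrete gland mucin, and chief cells at the base store digestive proenzymes such as pepsinogen in large granules. Chief cells in the mouse arise from neck cells, and after injury they can lose granules and re-express neck cell genes, a state called spasmolytic polypeptide-expressing metaplasia (SPEM).

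The 6 libraries held 20.7 to 27.1 M counts (M for mega). Levels are CPM, counts per M counts, scaled by TMM, a correction for composition, and 3 counts, taken as the floor for reading a level, correspond to 0.111 to 0.144 CPM; this floor covers counting error only. Correlations of log2 levels within a group (0.968 to 0.979) overlapped those between groups (0.964 to 0.972). Y-linked genes were left out of every test: transcripts of Ddx3y and Eif2s3y were both above 3 counts in ATP4B-DTR 1 and in all 3 GIF/ATP4B-DTR samples, and not in ATP4B-DTR 2 and 3. A difference that goes with these transcripts and one that goes with the genotype therefore cannot be fully told apart. An alternative fit with a covariate for these transcripts (the Y-linked covariate) compares the groups through ATP4B-DTR 1 alone.

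Over all expressed genes the 2 groups were close. Of 13850 genes tested with edgeR, 1 passed an adjusted p of 0.05 (0.00722% of those tested), and it is a pseudogene. Without adjustment, 1378 genes had a p under 0.05 (9.95%), where 692 would be expected if no gene differed; 628 were higher (4.53%) and 750 lower (5.42%) in GIF/ATP4B-DTR. The samples of the groups did not overlap for 2123 genes (15.3%), of which 1077 were higher (7.78%) and 1046 lower (7.55%). These shares are the background for every count below, together with the share of all genes whose log2 fold change was above 0 (52.4%) and the median over all genes, 0.02 on the log2 scale. The larger differences were mostly downward: 437 genes were at least 2-fold lower (3.16%) and 165 at least 2-fold higher (1.19%). DESeq2's Wald test, an alternative, called 191 genes at an adjusted p under 0.05, 47 higher and 144 lower; 186 of them were tested by edgeR and all 186 had an unadjusted edgeR p under 0.05. Where a gene below passed in DESeq2 its adjusted p is given. In the main edgeR fit on the 6 samples the pseudogene alone passed, so all other values are effect sizes with their errors. Some genes passed in alternative edgeR fits, which are named where they are given.

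**Figure D1:**
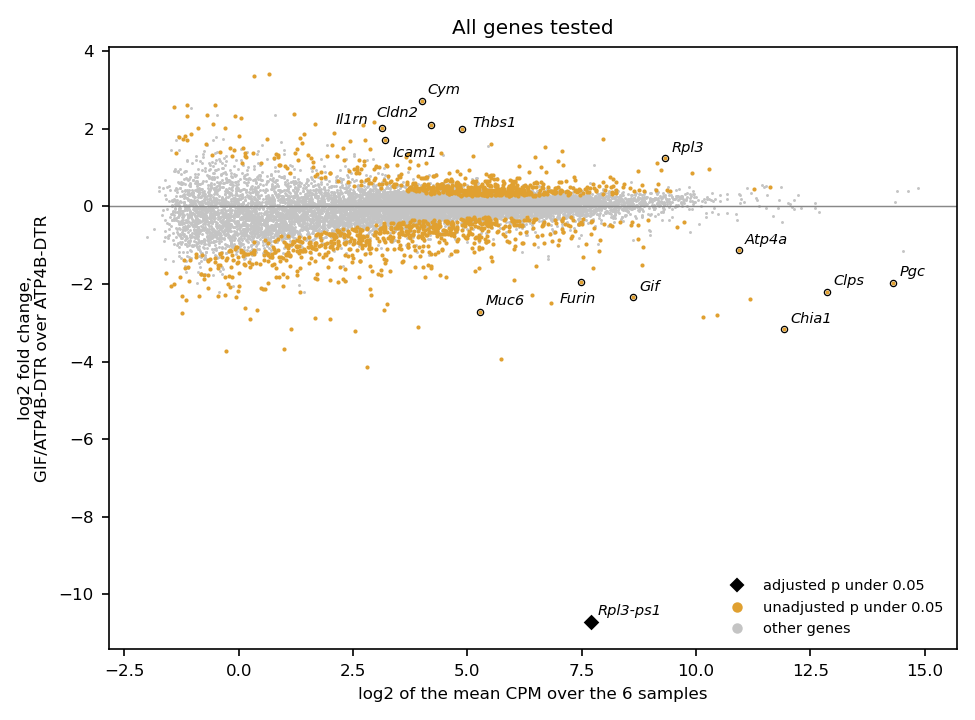
Log2 fold change of GIF/ATP4B-DTR over ATP4B-DTR (vertical axis) against log2 of the mean CPM over the 6 samples (horizontal axis), 1 point per gene tested; orange marks an unadjusted p under 0.05 and the black diamond the 1 gene with an adjusted p under 0.05, both from edgeR. Chief cell products such as Pgc (-1.96), Clps (-2.20) and Chia1 (-3.16) stand out at the abundant end, below 0, and Rpl3-ps1 (-10.71) lies far from all other genes.

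The single call concerns a pair of near-identical genes. Rpl3-ps1, on chromosome X, is a processed copy of Rpl3, a protein of the large ribosomal subunit encoded on chromosome 15. Rpl3-ps1 stood at 347, 620 and 281 CPM in the ATP4B-DTR samples and at 0.252, 0.132 and 0.333 CPM in the GIF/ATP4B-DTR samples, a log2 fold change of -10.71 ± 0.47 (SE; edgeR adjusted p = 8.57e-05; DESeq2 adjusted p = 2.14e-127). Rpl3 itself stood at 174 to 522 CPM against 836, 993 and 869 CPM, 1.24 ± 0.36 on the log2 scale (edgeR adjusted p = 0.357; DESeq2 adjusted p = 0.00899). Counts of both genes were fractional in 5 of the 6 samples, the form that estimated counts take where reads match more than 1 gene. Their sum was 869, 794 and 727 CPM against 836, 993 and 869 CPM, and differed by 0.18 ± 0.16 (edgeR adjusted p = 0.737), less than the spread between samples. With the 2 genes summed, no gene passed in edgeR. The call also ended in the fits that drew the spread from more genotypes, with adjusted p = 0.224 with the 9 samples of the DTR lines and 0.137 with all 11 samples in edgeR. The pseudogene also held 0 counts in GIF-DTR 1, while GIF-DTR 2 and 3 held 6063 and 7116, and the 2 control samples held 5350 and 3569. It was thus absent or nearly so in 4 of the 6 samples that carry GIF-DTR and present in all 5 that do not.

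Gif, Pgc, Chia1 and Clps, products of chief cells, were lower in GIF/ATP4B-DTR than in ATP4B-DTR, and were still well above the floor in every sample. Gif, on chromosome 19, stood at 852, 344 and 767 CPM in ATP4B-DTR and at 226, 86.3 and 75.0 CPM in GIF/ATP4B-DTR. The groups did not overlap, and the difference was -2.34 ± 0.53 on the log2 scale, a 5.07-fold lower level (edgeR adjusted p = 0.306; DESeq2 adjusted p = 0.0238). Pgc, on chromosome 17, encodes pepsinogen C, the precursor of a stomach protease. It stood at 51073, 14512 and 31260 CPM against 2368, 10894 and 11585 CPM, -1.96 ± 0.65 on the log2 scale or 3.90-fold lower (edgeR adjusted p = 0.412; DESeq2 adjusted p = 0.153). The lowest Pgc level in ATP4B-DTR and the highest in GIF/ATP4B-DTR are close, and the spread within each group is wide. For both genes the exact two-sided permutation test over the 6 samples gave p = 0.1, the smallest that 3 against 3 samples allow. In bulk tissue, fewer chief cells and less of these transcripts per chief cell cannot be told apart.

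The chief cell list held 9 genes, of which 7 were tested. Their median log2 fold change was -1.96, the lowest of all lists with 3 or more genes tested. Lists and members were chosen with earlier results of these data known, so this rank only describes them. Of the 7, 6 were below 0, 4 did not overlap between groups and 5 had an unadjusted p under 0.05, all 5 lower. Chia1, an acidic chitinase that digests chitin in food, had the largest difference. It stood at 12103, 2774 and 6112 CPM against 333, 800 and 1211 CPM, -3.16 ± 0.66 (edgeR adjusted p = 0.260; DESeq2 adjusted p = 0.00267). Clps, the cofactor colipase of fat digestion, stood at 20378, 7502 and 8680 CPM against 581, 2993 and 4396 CPM, -2.20 ± 0.74. For Chia1, Clps and Pgc, GIF/ATP4B-DTR 1 was the lowest of the 6 samples and ATP4B-DTR 1 the highest; for Gif, GIF/ATP4B-DTR 1 was the highest of its group. Bhlha15, the transcription factor MIST1 that builds the secretory apparatus, stood at 21.2, 2.73 and 10.6 CPM against 3.94, 2.34 and 4.58 CPM and overlapped between groups (-1.66 ± 0.66); it differed by -0.88 without ATP4B-DTR 1 and by -2.54 with a covariate for detected Y-linked transcripts. Other members did not follow. Pga5, a pepsinogen A, was low in GIF/ATP4B-DTR 1 alone, at 2.56 CPM, against 14.7 to 28.1 CPM in the other 5 samples. Rab3d, a small GTPase of secretory granules, differed by 0.02 ± 0.18, with no settled sign: its sign turned in 4 alternatives, and it ranged from -0.14 to 0.16 with 1 sample left out. Lipf was at 0 in all 6 samples. Rab26 was at 0.48 CPM in GIF/ATP4B-DTR 3 and at most 0.144 CPM, at or near the floor, elsewhere.

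**Figure D2:**
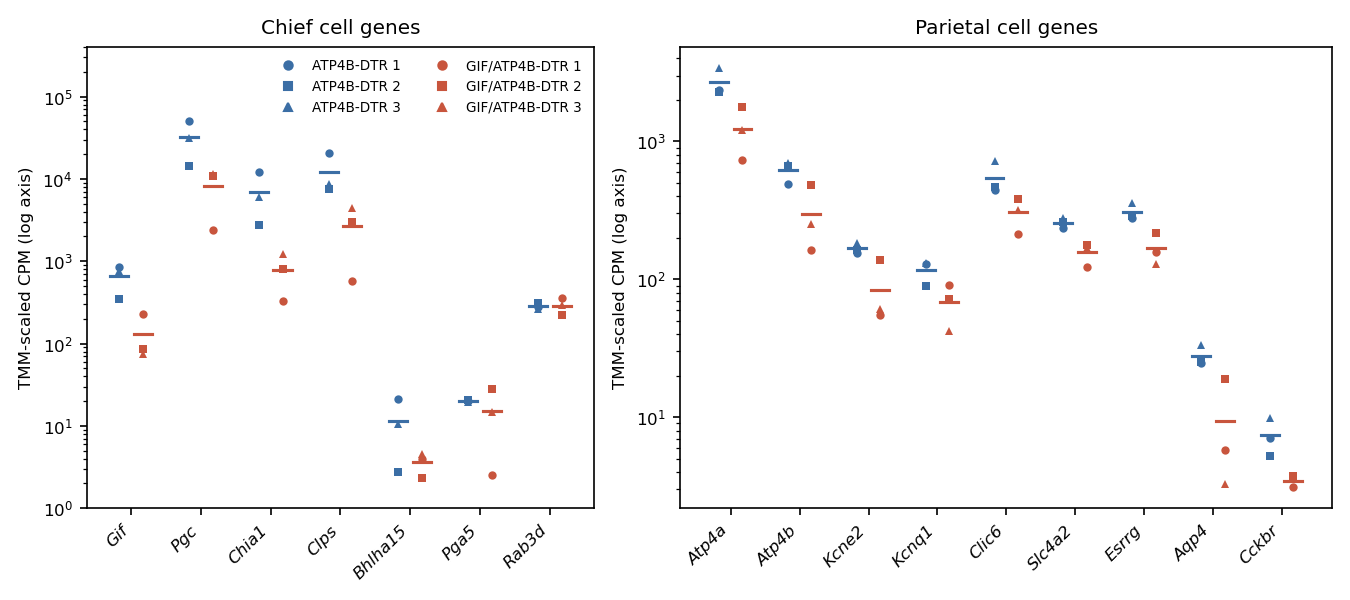
TMM-scaled CPM (log axes) of the 7 chief cell genes tested and 9 parietal cell genes in each of the 6 samples, with 1 symbol per sample and a bar at each group's mean. The groups separate for Gif, Pgc, Chia1 and Clps and for 8 of the 9 parietal genes shown (all but Kcnq1; over the whole list 9 of 18 separate), and GIF/ATP4B-DTR 1 is the lowest sample for Pgc, Chia1, Clps, Atp4a and Atp4b.

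Genes outside the chief cell list were also among those with the largest differences downward. The 10 lowest log2 fold changes that also had a mean of at least 8 CPM, an unadjusted p under 0.05 and groups that did not overlap belonged to Gif, Pgc, Chia1, Clps, Pla2g1b, Pdia2, Try4, Muc6, Clca1 and St3gal1; in all, 724 genes met those conditions, 393 higher and 331 lower. Pla2g1b, a secreted phospholipase A2, stood at 6213, 1540 and 4007 CPM against 138, 764 and 1335 CPM (-2.39 ± 0.86). Pdia2, a protein disulfide isomerase of enzyme-secreting cells, stood at 150, 93.4 and 179 CPM against 13.5, 35 and 38.1 CPM (-2.29 ± 0.42; DESeq2 adjusted p = 1.8e-08). Furin, a protease that cleaves proproteins in the secretory pathway, was on no list and was chosen after its values were seen. It stood at 305, 200 and 344 CPM against 97.4, 54.2 and 66.7 CPM. At -1.96 ± 0.27 Furin was among the genes closest to the threshold in edgeR (adjusted p = 0.116; DESeq2 adjusted p = 8.81e-11). Its counts were fractional in 5 of the 6 samples and those of Pdia2 in all 6. The groups did not overlap for these 3 genes. For Pla2g1b and Pdia2 this was a condition of being named, and Furin was chosen knowing its values, so the separation is no further result.

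Because colipase, phospholipase A2 and trypsins are also made by the pancreas, which lies against the stomach, pancreatic acinar genes were examined. Of 18 listed, 8 were tested; all 8 were below 0, with a median of -1.01, 2 lower without overlap and 4 lower at an unadjusted p under 0.05. Try4, a trypsinogen, stood at 16.8, 12.6 and 17.4 CPM against 1.05, 2.07 and 4.18 CPM, -2.67 ± 0.43 (edgeR adjusted p = 0.160; DESeq2 adjusted p = 1.49e-08), with counts fractional in 5 samples; without GIF/ATP4B-DTR 3 it passed in edgeR (adjusted p = 0.0479). The summed level of the list was 119 to 154 CPM in ATP4B-DTR and 57.2 to 65.8 CPM in GIF/ATP4B-DTR, and its part in the results for these secretory genes was not tested. Defining acinar transcripts stood out in ATP4B-DTR 2, where Ctrb1 reached 6.15 CPM and Pnlip 4.10 CPM, against at most 0.370 and 0.721 CPM in the other 5 samples. Prss2 and Cpa1 were likewise at 2.01 and 2.32 CPM in ATP4B-DTR 2 and at no more than 0.0481 CPM elsewhere. ATP4B-DTR 2 had the lowest Clps, Pla2g1b and Pgc of its group.

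For a few of the genes that were lower, ATP4B-DTR 3 stood well below the other ATP4B-DTR samples. St3gal4, a sialyltransferase, stood at 115, 179 and 4.42 CPM in ATP4B-DTR and at 6.29, 7.98 and 5.29 CPM in GIF/ATP4B-DTR (-3.93 ± 1.31). St3gal1, a related sialyltransferase, stood at 19.7, 55.4 and 5.73 CPM against 3.14, 3.61 and 2.66 CPM (-3.10 ± 0.79; DESeq2 adjusted p = 0.0242). Clca1, a secreted protein of mucus-producing cells, stood at 1882, 3553 and 549 CPM against 392, 256 and 182 CPM (-2.85 ± 0.67; DESeq2 adjusted p = 0.0066). In each, ATP4B-DTR 3 was the lowest of its group by a wide margin. Without that sample 20 genes passed in edgeR, all lower, among them these 3 and Spdef, a transcription factor of mucous and goblet cells, and with it none of the 4 did.

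Parietal cell genes were lower too, although both groups carry ATP4B-DTR. Of 19 listed genes 18 were tested. The median was -0.69, 16 were below 0, 9 were lower without overlap and 10 were lower at an unadjusted p under 0.05. The median ranged from -0.843 to -0.552 with 1 sample left out and was -0.56 with the Y-linked covariate. Atp4a, the catalytic subunit of the proton pump, stood at 2378, 2272 and 3407 CPM in ATP4B-DTR and at 738, 1773 and 1201 CPM in GIF/ATP4B-DTR. The groups did not overlap, at -1.12 ± 0.32 (edgeR adjusted p = 0.356; DESeq2 adjusted p = 0.00899). Atp4b stood at 490, 665 and 694 CPM against 164, 483 and 252 CPM, where the highest GIF/ATP4B-DTR sample nearly met the lowest ATP4B-DTR sample (-1.04 ± 0.37; -1.59 without GIF/ATP4B-DTR 2).

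The same held for other parts of the acid-secreting apparatus. Kcne2, the potassium channel subunit that recycles potassium for the pump, stood at 155, 163 and 184 CPM against 55.4, 137 and 60.5 CPM (-0.99 ± 0.33). Without GIF/ATP4B-DTR 2 the Kcne2 difference was -1.55 and passed in edgeR (adjusted p = 0.0419). Esrrg, a nuclear receptor that maintains parietal cell genes, stood at 277, 289 and 360 CPM against 158, 217 and 129 CPM (-0.88 ± 0.21; DESeq2 adjusted p = 0.00652). Slc4a2, the basolateral chloride-bicarbonate exchanger, stood at 257 ± 22.6 CPM (SD, n = 3) against 157 ± 29.8 CPM, without overlap (-0.72 ± 0.17; DESeq2 adjusted p = 0.0133), with fractional counts in all 6 samples. Aqp4, a water channel, had the largest difference of the list, at 24.7, 25.2 and 33.5 CPM against 5.74, 18.9 and 3.29 CPM (-1.58 ± 0.61). Without GIF/ATP4B-DTR 2, the highest of its group, it was -2.65 (edgeR adjusted p = 0.0465). Cckbr, the gastrin receptor, differed by -1.09 ± 0.28 (DESeq2 adjusted p = 0.0376), and Clic6, an intracellular chloride channel, by -0.83 ± 0.26. Not all parietal genes were lower to this extent: Car2, the carbonic anhydrase, differed by -0.25 ± 0.23, Kcnj15 by -0.28 ± 0.19 and Slc9a4, a sodium-proton exchanger, by 0.05 ± 0.18, and these 3 overlapped between groups. Kcne1, a potassium channel subunit at low level, was higher, at 1.01, 1.28 and 0.379 CPM against 1.01, 2.25 and 2.37 CPM (1.08 ± 0.54), also with overlap.

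Neck cell genes split in both directions. Muc6, the gland mucin, stood at 28.9, 94.0 and 78.3 CPM against 5.79, 9.04 and 15.8 CPM (-2.71 ± 0.54; DESeq2 adjusted p = 0.00267). Its difference was -1.5 under the alternative that moved it most. A4gnt, the enzyme that caps that mucin with its terminal sugar, stood at 168, 132 and 99.9 CPM against 76.1, 38.9 and 24.2 CPM (-1.52 ± 0.41; DESeq2 adjusted p = 0.00113). Both were lower in every GIF/ATP4B-DTR sample. The peptide Tff2, which gives SPEM its name, was not: it stood at 617, 810 and 1384 CPM against 897, 1105 and 1297 CPM (0.23 ± 0.29). The channels of the list went the other way. Cftr, the chloride channel mutated in cystic fibrosis, stood at 13.6, 9.11 and 13.1 CPM against 25.2, 42.5 and 25.9 CPM (1.38 ± 0.25; DESeq2 adjusted p = 9.17e-05). Aqp5, a water channel of neck cells and SPEM, stood at 14.9, 11.4 and 16.1 CPM against 19.5, 33.9 and 19.5 CPM (0.78 ± 0.25; 0.44 without GIF/ATP4B-DTR 2). The neck list as a whole, with 6 genes tested, had 2 higher and 2 lower without overlap.

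Of the SPEM list, 15 of 16 genes were tested, with a median of 0.12 that turned to -0.14 without GIF/ATP4B-DTR 1, -0.11 without GIF/ATP4B-DTR 2 and -0.20 with a covariate for Y-linked transcripts; 8 were above 0, 2 were higher and 1 lower without overlap. Cftr and Aqp5, the 2 higher, are also on the neck list. Clu, an extracellular chaperone, differed by 0.48 ± 0.40 and Cd44, a hyaluronan receptor, by 0.52 ± 0.28, both with overlap. With 1 sample left out Clu ranged from 0.27 to 1.01 and Cd44 from 0.3 to 0.9. Each changed sign in 1 other alternative, to -0.2 and -0.04. Members below 0 included Gkn3, a gastrokine of neck cells (-1.27 ± 0.61), and the transcription factor Sox9 (-0.55 ± 0.31), also with overlap. With 1 sample left out Gkn3 ranged from -2.29 to -0.88. The lower gene was Il33, an alarmin of damaged epithelium, at 167, 175 and 152 CPM against 63.4, 111 and 97.2 CPM (-0.87 ± 0.20; edgeR adjusted p = 0.261; DESeq2 adjusted p = 0.0066). Il13, which acts downstream of IL-33 in type 2 immunity, was near the floor or at 0 in all 6 samples and was not tested. Of 13 pit cell genes tested, 1 was higher without overlap; the median was 0.20, and it was -0.05 without ATP4B-DTR 1 and 0.95 with a covariate for Y-linked transcripts. That gene, Krt20, a keratin of mature surface cells, stood at 91.1, 124 and 141 CPM against 243, 170 and 193 CPM (0.77 ± 0.20; DESeq2 adjusted p = 0.0323). The mucin Muc5ac differed by -0.41 ± 0.43 and the pit peptides Gkn1 and Tff1 by 0.40 ± 0.35 and 0.39 ± 0.33, all with overlap.

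Tuft cells, the rare chemosensory cells of the epithelium, gave lower values. Of 9 listed genes 7 were tested, with a median of -0.57; 6 were below 0, 5 were lower without overlap and 2 had an unadjusted p under 0.05. The tuft median was -0.345 without ATP4B-DTR 2 and also with the Y-linked covariate. Gnat3, a taste-signalling G protein, stood at 9.96, 11 and 7.24 CPM against 4.91, 4.36 and 2.88 CPM (-1.22 ± 0.27; DESeq2 adjusted p = 0.00528). Dclk1, a kinase used as a tuft cell marker, stood at 19.8, 26.7 and 18.2 CPM against 13.5, 11.9 and 13.7 CPM (-0.73 ± 0.18; DESeq2 adjusted p = 0.0476). Avil, an actin-binding protein of tuft cells, did not differ in this way (0.05 ± 0.22). Endocrine cell genes overlapped between groups in all 13 tested, and 10 were below 0. Their median of -0.15 ranged from -0.44 to 0.12 with 1 sample left out and was -0.58 with the Y-linked covariate. Hdc, the enzyme that makes histamine, stood at 52.9, 26.4 and 61.3 CPM against 30.7, 20.5 and 21.5 CPM (-0.95 ± 0.31).

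Among the lists with more than 3 genes tested, the list of NF-kB and inflammatory cytokine genes had the highest median. The B and plasma cell list, with 3 genes tested, was higher, at 1.29. Lists and members were chosen with earlier results of these data known, so the rank only describes them. NF-kB is a family of transcription factors that are held in the cytoplasm until a cytokine, a microbial product or cell damage releases them, and that then switch on chemokines, adhesion molecules and their own inhibitors. Of 17 listed genes 13 were tested, and all 13 were above 0, with a median of 0.90; 5 were higher without overlap and 7 were higher at an unadjusted p under 0.05. The filter on low counts kept a gene that was above its limit in 3 samples, so low members could pass through the group where they were high, and the 13 are not the whole list. Of the 4 members not tested, Csf2, Csf3 and Il6 were at or under 0.397 CPM in all 6 samples. Il1b, the cytokine interleukin-1 beta, ran the other way, at 1.20, 1.14 and 0.0421 CPM against 0.0419, 0.397 and 0.333 CPM. Among members with at least 10 counts in every sample the median was 0.73, with 5 higher at an unadjusted p under 0.05. The promoters of 3 of the 5 genes that did not overlap are shown, because each holds the NF-kB consensus, in capitals, within the 250 bases before its start. Sequences are from RefSeq on GRCm38.p6, plus strand, for Ccl20 (chr1:83116516-83116765), Cxcl2 (chr5:90903649-90903898) and the first listed start of Nfkb2 (chr19:46304487-46304736).
Ccl20: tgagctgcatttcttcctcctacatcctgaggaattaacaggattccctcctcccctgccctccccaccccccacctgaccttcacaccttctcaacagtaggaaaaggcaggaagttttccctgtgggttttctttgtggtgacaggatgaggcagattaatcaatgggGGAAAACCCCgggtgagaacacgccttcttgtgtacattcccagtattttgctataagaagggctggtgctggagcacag
Cxcl2: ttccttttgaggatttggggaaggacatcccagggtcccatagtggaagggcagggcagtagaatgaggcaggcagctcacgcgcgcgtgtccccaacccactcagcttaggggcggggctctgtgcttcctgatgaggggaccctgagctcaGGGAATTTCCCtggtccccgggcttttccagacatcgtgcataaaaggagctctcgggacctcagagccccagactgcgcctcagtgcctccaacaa
Nfkb2: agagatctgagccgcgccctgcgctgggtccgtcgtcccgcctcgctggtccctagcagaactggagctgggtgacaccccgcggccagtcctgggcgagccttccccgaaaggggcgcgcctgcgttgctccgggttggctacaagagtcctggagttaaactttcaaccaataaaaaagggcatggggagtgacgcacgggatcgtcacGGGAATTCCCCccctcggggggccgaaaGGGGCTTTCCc
The Ccl20 promoter holds 1 match, the Cxcl2 promoter 2 that overlap, and the Nfkb2 promoter 3, of which 2 overlap; both strands were searched. The 13 listed genes with an entry have 16 promoter windows, since some genes have several starts; 9 of the 16 held a match, against 7.25% of 32851 promoter windows of the same length. The genes were listed as known NF-kB targets, so this describes the list and says nothing of binding in these samples. By gene, 7 of the 13 held a match in at least 1 window. Icam1, Birc3, Tnf, Il1a, Il1b and Csf2 held none, and Relb had no entry.

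Icam1, the adhesion molecule by which leukocytes attach, stood at 5.19, 3.10 and 4.59 CPM in ATP4B-DTR and at 10.8, 11.3 and 19.7 CPM in GIF/ATP4B-DTR. Every GIF/ATP4B-DTR sample was more than 2-fold above every ATP4B-DTR sample, at 1.70 ± 0.30 on the log2 scale (edgeR adjusted p = 0.172; DESeq2 adjusted p = 4.48e-05), with fractional counts in 5 samples. The chemokines were at low levels, where the filter bears on which members were tested. Cxcl2, which attracts neutrophils, stood at 0.385, 0.729 and 0.211 CPM against 0.797, 1.85 and 2.07 CPM (1.83 ± 0.59), and Ccl20, which attracts lymphocytes and dendritic cells, at 0.433, 0.547 and 0.253 CPM against 1.72, 0.837 and 0.739 CPM (1.41 ± 0.55). The subunits Relb and Nfkb2 form the non-canonical NF-kB dimer. Relb stood at 17.4, 22.9 and 21.2 CPM against 24.1, 36.9 and 48.9 CPM (0.84 ± 0.24) and Nfkb2 at 46.2, 57.1 and 52.0 CPM against 66.2, 72.7 and 103 CPM (0.64 ± 0.18). Birc3, an inhibitor of cell death, and Tnfaip3, the feedback inhibitor A20, differed by 0.58 ± 0.24 and 0.44 ± 0.20, with overlap. With 1 sample left out Birc3 ranged from 0.41 to 0.83 and Tnfaip3 from 0.19 to 0.61. Tnf, Cxcl1, Ccl2, Cxcl5, Nfkbia and Il1a also overlapped. GIF/ATP4B-DTR 3 was the highest sample for 10 of the 13 genes, and without it the median of the list was 0.57. Neutrophil transcripts were low in both groups: S100a8, S100a9 and Ly6g were at or under 0.456 CPM in all 6 samples, and 1 of the 8 listed neutrophil genes was expressed enough to be tested. Macrophage genes had a median of -0.26 with 11 of 15 below 0, and a median of 0.09 without ATP4B-DTR 3.

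**Figure D3:**
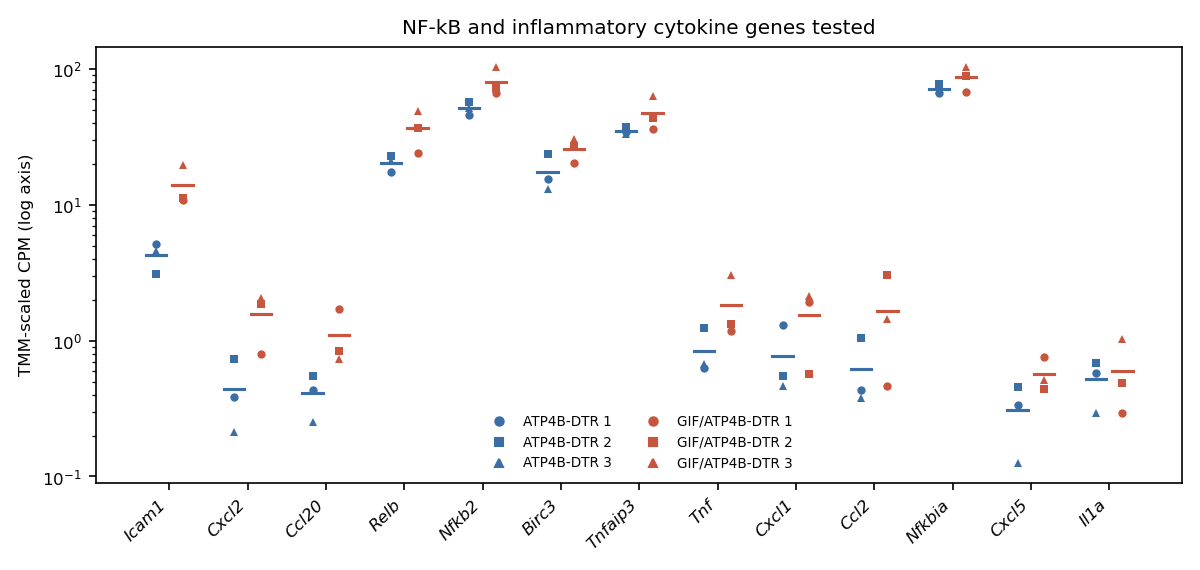
TMM-scaled CPM (log axis) of the 13 NF-kB and inflammatory cytokine genes tested, with 1 symbol per sample and a bar at each group's mean. The groups separate for Icam1, Cxcl2, Ccl20, Relb and Nfkb2, and GIF/ATP4B-DTR 3 is often the highest sample.

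Among all genes, those closest to the threshold in edgeR after the pseudogene included further genes, chosen here after their values were seen. Cdkn1c, an inhibitor of the cell cycle, stood at 17.2, 13.3 and 14.4 CPM against 5.16, 4.94 and 4.07 CPM (-1.66 ± 0.19; edgeR adjusted p = 0.0875; DESeq2 adjusted p = 1.48e-09). Thbs1, a matrix glycoprotein, stood at 14.3, 10.1 and 11.2 CPM against 66.1, 31.7 and 43.8 CPM (1.99 ± 0.27; edgeR adjusted p = 0.116; DESeq2 adjusted p = 9.13e-10). Il1rn, which blocks the interleukin-1 receptor, stood at 3.94, 3.96 and 2.53 CPM against 10.4, 12.5 and 19.1 CPM (2.01 ± 0.29; edgeR adjusted p = 0.116; DESeq2 adjusted p = 1.03e-07), with fractional counts in 5 samples. S100a10, the partner of annexin A2 at the plasma membrane, stood at 6.69, 7.43 and 7.83 CPM against 21.7, 16.1 and 17.7 CPM (1.34 ± 0.18; edgeR adjusted p = 0.116; DESeq2 adjusted p = 1.19e-06). These 4 genes were taken from those with the smallest unadjusted p, so a wide gap relative to the spread within groups is what selected them. With no filter on low counts these 4, Icam1, Cftr and Furin passed in edgeR, and Thbs1 also passed without GIF/ATP4B-DTR 2. The 10 highest fold changes under the same conditions as the 10 lowest were Cym, Cldn2, Il1rn, Thbs1, Icam1, Kcne3, Ly6d, Sprr1a, Cftr and S100a10. Cym, a milk-clotting protease of the stomach, led them at 2.73 ± 0.93, and its level was highest in GIF/ATP4B-DTR 1: it stood at 64.8, 13 and 5.51 CPM in GIF/ATP4B-DTR against 5.05, 5.01 and 2.53 CPM. Without GIF/ATP4B-DTR 1 the Cym difference was 1.14, below those of Cldn2, Il1rn and Thbs1. Ly6d, a surface protein of epithelial progenitors, stood at 54.7, 39.4 and 66.3 CPM against 258, 107 and 99.2 CPM (1.53 ± 0.40, and 0.95 without GIF/ATP4B-DTR 1; DESeq2 adjusted p = 0.00101), and Sprr1a, a small proline-rich protein induced by stress, at 66.1, 74.9 and 76.5 CPM against 110, 172 and 305 CPM (1.43 ± 0.33; DESeq2 adjusted p = 0.000547). Of the markers of the squamous forestomach, Krt5, Krt6a, Trp63, Dsg3 and Sprr3 were at 0 in all 6 samples and 1 of the 10 listed, Krt13, was tested. The list summed to 2.19 to 21.1 CPM in ATP4B-DTR and 1.43 to 4.28 CPM in GIF/ATP4B-DTR, most of it Krt13 (1.05 of the 1.43 CPM in GIF/ATP4B-DTR 1).

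Claudins are the proteins that set the permeability of tight junctions. Of 13 claudins listed, 10 were tested, with a median of 0.31 (0.165 without ATP4B-DTR 3 and 0.172 without GIF/ATP4B-DTR 3); 9 were above 0 and 2 were higher without overlap. Cldn2, which forms cation-permeable pores and is typical of leaky epithelium, stood at 6.30, 3.65 and 10.9 CPM against 19.9, 43.8 and 25.3 CPM (2.09 ± 0.44; edgeR adjusted p = 0.260; DESeq2 adjusted p = 1.74e-05). Cldn4, a sealing claudin, stood at 3.94, 2.60 and 0.884 CPM against 6.33, 6.83 and 18.6 CPM (2.11 ± 0.61; DESeq2 adjusted p = 0.00432). Cldn18, the claudin of gastric epithelium, differed by 0.19 ± 0.18 with overlap. Kcne3, the potassium channel subunit that supports chloride secretion, stood at 36.0, 16.6 and 15.2 CPM against 96.4, 61.8 and 48.0 CPM (1.61 ± 0.40; DESeq2 adjusted p = 0.00046). The Kcne3 difference was 0.93 at its smallest over the alternatives. Intestinal genes as a list did not move together: of 9 tested 2 were higher without overlap, Cldn2 and Fabp2, a fatty acid binding protein (0.93 ± 0.31), and Cdx1 and Cdx2, the regulators of intestinal fate, were at or near 0.

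In the lists of EGF receptor signalling and WNT targets, 1 gene each was higher without overlap, close to the 7.78% of all genes. Areg, a ligand of the epidermal growth factor receptor, stood at 22.1, 48.8 and 29.8 CPM against 55.4, 51.2 and 68.8 CPM (0.80 ± 0.27), and was the only one of 13 tested genes of that pathway that was higher without overlap; the median was -0.03. Lrig1, an inhibitor of these receptors, was lower at an unadjusted p of 0.0253 (-0.50 ± 0.19), and the ligand Ereg had the lowest value (-1.34 ± 0.65), both with overlap. Axin2, a feedback target of WNT signalling, stood at 5.48, 3.01 and 4.55 CPM against 13.4, 7.54 and 6.39 CPM (1.07 ± 0.34; 0.68 without GIF/ATP4B-DTR 1), the only one of 12 tested WNT targets without overlap, and the stem cell gene Lgr5 differed by 0.02 ± 0.49, with no settled sign: it ranged from -0.39 to 0.50 with 1 sample left out, was -0.63 with the Y-linked covariate and also turned under other scalings. Of 13 p53 response genes tested, 4 were higher without overlap and none lower, with a median of 0.39, which was 0.23 without GIF/ATP4B-DTR 1 and 0.04 with the Y-linked covariate. Cdkn1a, the cell cycle inhibitor p21, stood at 199, 237 and 213 CPM against 342, 247 and 341 CPM (0.52 ± 0.17). Gdf15, a stress cytokine, differed by 1.19 ± 0.45, Fas, a death receptor, by 0.63 ± 0.23, and Bax, a pore-forming protein of apoptosis, by 0.39 ± 0.14. Mdm2, the inhibitor of p53 that p53 itself induces, differed by -0.08 ± 0.14.

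Some lists leaned one way by small amounts. All 24 mitosis genes and 24 of 25 DNA replication genes were above 0, with medians of 0.22 and 0.25, but 1 and 0 of them did not overlap between groups, and the mitosis median turned to -0.06 with the Y-linked covariate. With 1 sample left out the mitosis median ranged from 0.133 to 0.402 and the DNA replication median from 0.15 to 0.356, and the latter was 0.118 with the Y-linked covariate. Cytosolic ribosome genes were above 0 in 45 of 45, with a median of 0.18, and 4 did not overlap, among them Rpl3, described above with its pseudogene. The ribosome median was 0.04 without GIF/ATP4B-DTR 2 and 0.05 with the Y-linked covariate. Genes of 1 list vary together across samples, so their common sign is not a count of independent results. Nuclear-encoded genes of the respiratory chain had a median of -0.10, with 6 of 34 lower without overlap, and genes of fatty acid oxidation and the TCA cycle a median of -0.09, with 4 of 23 lower without overlap. With 1 sample left out these 2 medians ranged from -0.184 to -0.0558 and from -0.155 to -0.0673. These shares can be read against the 7.55% of all genes that were lower and the 7.78% that were higher without overlap.

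Stromal transcripts were lower on average but followed single samples. All 9 smooth muscle genes were below 0, with a median of -0.81 (-1.12 to -0.523 with 1 sample left out), yet 7 overlapped; Myh11, smooth muscle myosin, stood at 217, 110 and 356 CPM against 48.2, 141 and 148 CPM. The list was highest in ATP4B-DTR 3 and lowest in GIF/ATP4B-DTR 1. Endothelial genes (median -0.67), fibroblast genes (-0.54) and collagens (-0.33) had 1, 1 and 0 members lower without overlap, and the collagen median turned to 0.13 without ATP4B-DTR 3. With 1 sample left out the endothelial median ranged from -1.34 without GIF/ATP4B-DTR 2 to -0.25 without GIF/ATP4B-DTR 1, and the fibroblast median from -0.877 without GIF/ATP4B-DTR 2 to -0.149 without ATP4B-DTR 3. Smooth muscle genes summed to 623 to 1417 CPM in ATP4B-DTR and 317 to 758 CPM in GIF/ATP4B-DTR; the part of this difference in the epithelial results was not tested. Of the list of stromal niche signals 15 genes were tested, with a median of -0.27 (-0.612 to 0.0484 with 1 sample left out) and 12 below 0. Its lowest value was that of Igf1, a growth factor of stromal cells. Igf1 was the 1 member lower without overlap, a share near the 7.55% of all genes. It stood at 17.6, 10.3 and 12.4 CPM against 2.05, 5.91 and 3.88 CPM (-1.77 ± 0.37; DESeq2 adjusted p = 0.000298). Interferon response genes had a median of 0.02, which ranged from -0.475 to 0.434 with 1 sample left out and was 0.724 with the Y-linked covariate; Irf1, which NF-kB and interferon gamma both induce, was the 1 of 19 that was higher without overlap (0.52 ± 0.14). The B and plasma cell list had a median of 1.29 over 3 tested genes, but Igha, the IgA heavy chain, was high in GIF/ATP4B-DTR 2 alone, at 8.46 CPM against at most 0.818 CPM elsewhere.

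**Figure D4:**
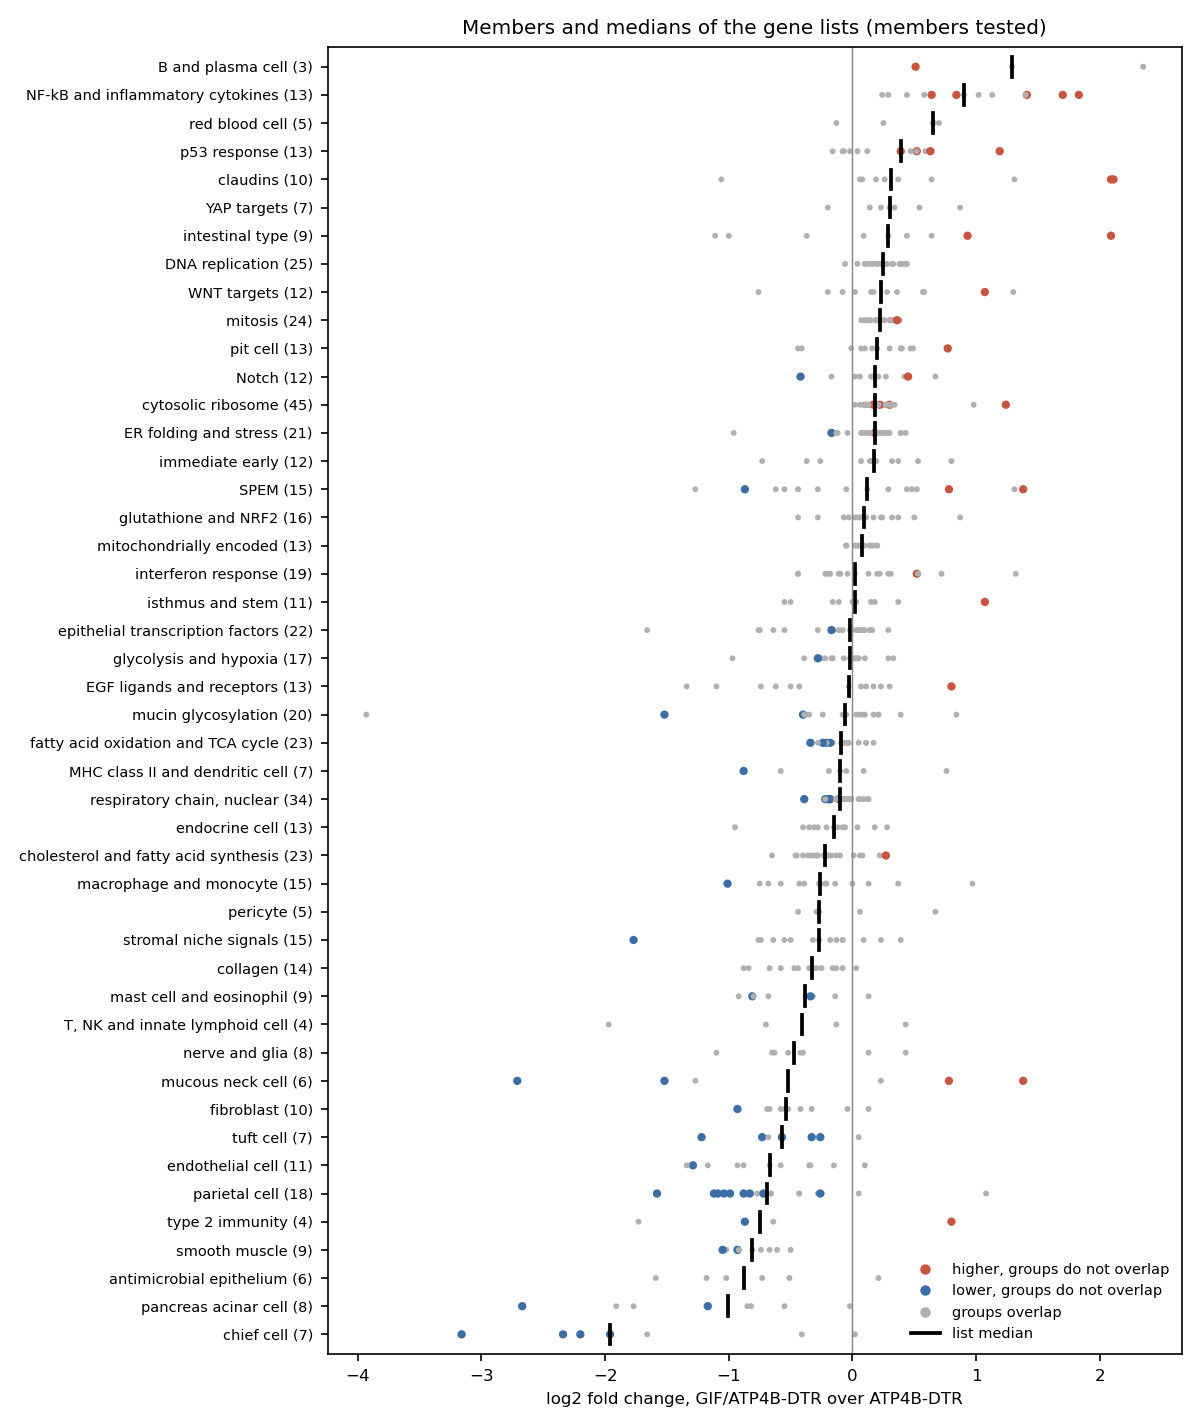
Log2 fold change of every tested member of the 46 lists with 3 or more genes tested, 1 row per list with the number tested in parentheses; colour marks members whose groups do not overlap and the black bar is the list's median. The chief cell list lies lowest (-1.96) and the NF-kB list is the highest of those with more than 3 genes (0.90).

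Per sample, the level of a list was taken as the median over its tested members of log2(CPM + 0.25) minus the mean over the 6 samples. These levels separated the groups in 7 of the 46 lists, a share like the 15.3% of single genes that did not overlap, so the number of lists is not itself a result. The chief cell, parietal cell, tuft cell, pancreas acinar cell and fatty acid oxidation lists were lower, and the NF-kB and claudin lists higher; for fatty acid oxidation the gap between the groups was 0.02. The chief cell level was 1.89, 0.39 and 0.91 in ATP4B-DTR and -2.39, -0.64 and -0.25 in GIF/ATP4B-DTR. The parietal level was 0.23, 0.29 and 0.57 against -0.59, -0.05 and -0.30, and the NF-kB level -0.42, -0.11 and -0.65 against -0.03, 0.20 and 0.69. The order of samples differed between lists: GIF/ATP4B-DTR 1 was lowest for chief and parietal genes, while GIF/ATP4B-DTR 3 was highest for NF-kB genes.

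**Figure D5:**
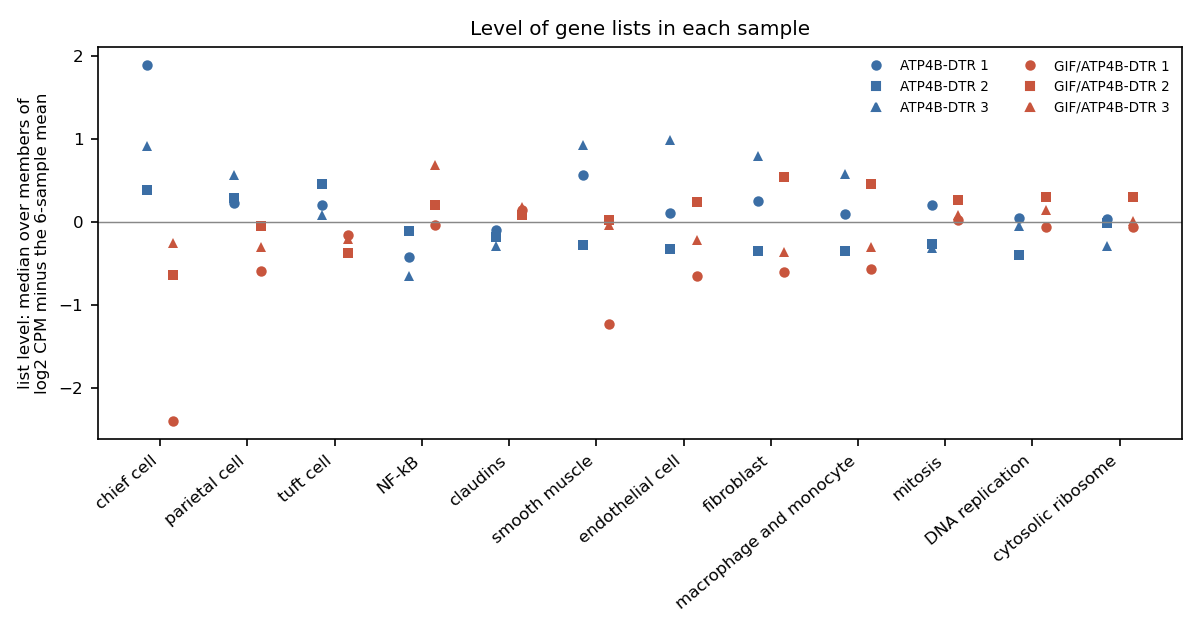
Level of 12 gene lists in each of the 6 samples, as the median over tested members of log2(CPM + 0.25) minus the 6-sample mean. Chief cell, parietal cell, tuft cell, NF-kB and claudin levels separate the groups, while smooth muscle, endothelial, fibroblast and macrophage levels are highest in ATP4B-DTR 3 and lowest in GIF/ATP4B-DTR 1, and overlap.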

How the data were processed

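RNA from mouse corpus mucosa was sequenced from stranded TruSeq mRNA libraries, as the labels' protocols state. The authors deposited a table of estimated counts per gene; their unit, expected counts rather than the whole counts the design assumed, was inferred because 30.7% of nonzero entries were fractional. The build is mm10, per the submitters' processing notes; the aligner and counter are not given in the sources used here. Counts were rounded to whole numbers. The names of 99.2% of 34866 gene rows were matched, and chromosomes and lengths came from GENCODE M21. Y chromosome genes (730 rows) were removed.

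GIF/ATP4B-DTR was compared with ATP4B-DTR using edgeR 4.0.16 in R 4.3.3 on the 6 samples alone: filterByExpr, TMM factors from 0.912 to 1.09, a robust quasi-likelihood F test, and Benjamini-Hochberg adjustment over all 13850 genes. Gene p-values in the report come from this fit unless DESeq2 1.42.0 is named. The standard error is the size of the log2 fold change divided by the square root of F. On simulated counts for these 13850 genes, 67% of genes changed 2-fold and 90% of genes changed 4-fold were recovered, and 3.68% of calls were false. Simulated dispersions followed the trend, without the further spread of single genes, so real recovery may be lower. In the real fit 1 gene passed, while 437 genes were at least 2-fold lower and 165 at least 2-fold higher. The simulated shares check the fit and are not the power of this comparison.

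The 50 lists hold 700 genes, of which 604 were tested, 71 had an unadjusted p under 0.05 and 0 passed in edgeR; DESeq2 called 20. Members and lists were chosen with earlier results of these data known. Genes named are those the lines are named for with Pgc and Atp4a, list members, the 10 highest and 10 lowest fold changes with a mean of at least 8 CPM, an unadjusted p under 0.05 and no overlap (gene models, pseudogenes and Y-linked genes left out), and genes with an adjusted p under 0.05; others are marked as chosen after their values were seen. Alternatives varied scaling, filter, moderation, test, samples, gene length, Y-linked detection and each sample in turn.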

Additional observations from a re-analysis of the deposited data

How the results depend on the processing

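The number of genes with an adjusted p under 0.05 was 1 in the fit reported. It was 191 with DESeq2's Wald test, 42 with no low-count filter, 0 with at least 10 counts in every sample, 0 with all 11 samples, 4 with the 9 samples of the DTR lines (Cdkn1c, Furin, Sec14l4 and Thbs1, without the pseudogene), 4 with a covariate for detected Y-linked transcripts and 0 with Rpl3 and Rpl3-ps1 summed. Leaving out 1 sample gave 1 to 20, the highest without ATP4B-DTR 3, with 6, 3 and 2 without GIF/ATP4B-DTR 2, 3 and 1. Unadjusted calls ranged from 309 to 814 higher and 480 to 975 lower when 1 sample was left out, both lowest without GIF/ATP4B-DTR 3. The chief cell median ranged from -2.34 to -1.47 with 1 sample left out and was -2.62 with the Y-linked covariate; its 5 lower members at an unadjusted p under 0.05 became 2 with no filter, 2 to 5 with 1 sample left out (2 without ATP4B-DTR 1, 3 without GIF/ATP4B-DTR 2). The parietal count of 10 became 5 with the Y-linked covariate. The NF-kB median ranged from 0.574 to 0.956 with 1 sample left out; its count of 7 became 4 with all 11 samples, 3 with the Y-linked covariate, and 4 to 9 with 1 sample left out, 4 without ATP4B-DTR 3 or GIF/ATP4B-DTR 3. The cause was not tested. Gif was called with DESeq2 (-2.35), and its direction and that of Pgc held under every alternative. Of 46 list medians 27 kept their sign under every alternative, and of 114 genes recomputed 101 did; the exceptions named in the report are Pga5, Rab3d, Slc9a4, Kcnj15, Tff2, Muc5ac, Clu, Cd44, Avil, Il1a and Lgr5. The Y-linked covariate and the summed Rpl3 counts were chosen after seeing the data. The covariate leaves ATP4B-DTR 1 as the only sample that ties the groups, and the planned form over 4 genes was not run because all 6 samples were above its limit. No paired analysis was possible because the replicate numbers follow accession order and pair no samples. Levels under the 3-count floor of 0.111 to 0.144 CPM are too low to be read.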
